A study of Rattus norvegicus with 20 samples.

Results

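The comparison described here sets the liver of male rats given 220 mg/kg of triphenyl phosphate against the liver of rats given the vehicle alone. Its members are 8 of the 20 arrays of the series, 3 from the 220 mg/kg group and 5 from the vehicle group, chosen by the dose in their titles. All of the animals were male Harlan Sprague-Dawley rats; dosed rats received the compound in corn oil by gavage once a day on 4 consecutive days, the vehicle rats received corn oil by the same route and schedule, and livers were taken on day 5. The remaining arrays, 3 each at 55, 110, 440 and 881 mg/kg, are used here to estimate the spread and to place 220 mg/kg in the dose series. The 440 mg/kg arrays carry that dose in their own labels, while the protocol text gives 441 mg/kg. The protocol names 3 rats per dose group, whereas 5 arrays are labelled as vehicle, and no label ties an array to an animal. The p-values therefore measure the spread between these samples, part of which may be technical. The sources used here do not give the animals' age, the hour of sampling or the interval after the last dose.

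Triphenyl phosphate is an aryl ester of phosphoric acid used as a flame retardant and plasticiser, and the liver is the main organ that clears such compounds. Hepatocytes sense many foreign lipophilic chemicals through the nuclear receptors CAR and PXR and through the stress-responsive factor NRF2, which raise transcription of oxidising enzymes, conjugating enzymes and efflux pumps. The same cells run a circadian clock, in which BMAL1 with CLOCK or NPAS2 drives the PER, CRY and REV-ERB repressors, and the REV-ERBs (Nr1d1 and Nr1d2) in turn repress Bmal1. Fatty acid handling in liver depends in part on PPAR alpha, and shortage of amino acids or misfolded protein raises the transcription factor ATF4.

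Each value is a deposited log2 expression value of 1 probe set, and a log2 change is the 220 mg/kg mean minus the vehicle mean, given with its standard error (SE). Genes are said to have risen or fallen only where limma's Benjamini-Hochberg adjusted p was under 0.05 over 14217 genes. Per-array values are listed in the order of the replicate numbers. As a check of the tissue label, the mean log2 level of 13 hepatocyte markers lay between 14.52 and 14.59 in the 220 mg/kg arrays and between 14.58 and 14.60 in the vehicle arrays. Array medians ran from 6.31 to 6.39. The 3' minus 5' difference of the Gapdh control probe sets, a sign of RNA integrity that grows with degradation, was 0.90 to 1.64 at 220 mg/kg and 0.82 to 1.35 in vehicle, and that of beta-actin 2.01 to 2.72 and 1.67 to 2.44. One array outside this comparison, 881 mg/kg replicate 2, stood apart with a Gapdh difference of 5.24 and entered the shared estimate of the spread.

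At 220 mg/kg, 320 genes rose and 168 fell, 488 of 14217 or 3.43% in either direction, 2.25% upward and 1.18% downward. At limma's unadjusted p under 0.05, 2361 genes (16.6%) differed in either direction. That share is the one to set beside the unadjusted counts given below for the gene lists. The largest rise was that of the clock output factor Dbp and the largest fall that of the growth-factor-responsive factor Egr1. Changes were mostly small: 106 of the genes that rose and 69 of those that fell moved by at least 1.5-fold, 28 and 21 by at least 2-fold, and 6 and 3 by at least 4-fold. The median log2 change of called genes was 0.48 upward and -0.54 downward, set beside a median of 0.0016 over all genes. All 3 dosed arrays lay above all 5 vehicle arrays for 305 of the risen genes, and all 3 lay below for 158 of the fallen genes, while 7.95% and 5.02% of all genes showed such separation upward and downward. Without 220 mg/kg replicate 1, 2 or 3, the total called was 298, 204 and 213, and without vehicle replicate 4 it was 292. In the fit to all arrays and in each of the 8 fits that left out 1 array, 121 genes were called, 74 upward and 47 downward. Estimating array weights gave 1293 calls, and dropping 881 mg/kg replicate 2 from the model gave 748.

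**Figure D1:**
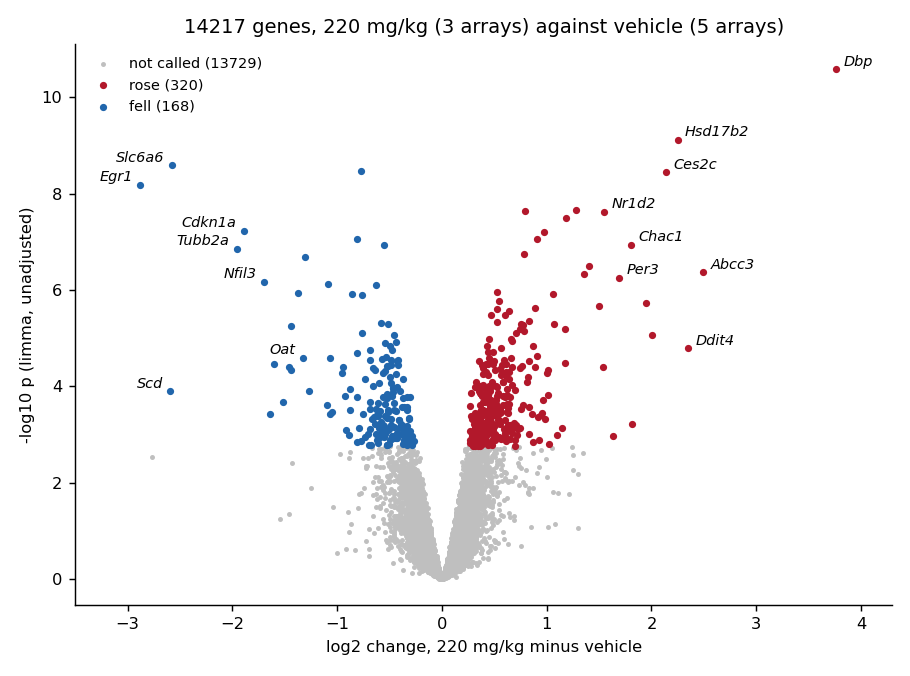
Log2 change (220 mg/kg minus vehicle, horizontal axis) against -log10 of limma's unadjusted p (vertical axis) for 14217 genes, from 3 dosed and 5 vehicle arrays. Red points are the 320 genes that rose, blue points the 168 that fell and grey points the rest; Dbp lies farthest to the right and Egr1 farthest to the left.

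Among the lists of liver pathways, the clock list had the largest share of called members, 14 of 24 or 58.3%, followed by tubulins and cytoskeleton with 35.7% and the CAR and PXR list with 32.0%. Over all 735 measured genes of the lists, 47 rose and 40 fell. The bar chart of the lists shows that the called members were all higher in some lists, such as the CAR and PXR, NRF2 and stress response lists, and all lower in others, such as the PPAR alpha and cytoskeleton lists. Further lists, the clock list first among them, held both risen and fallen members.

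**Figure D2:**
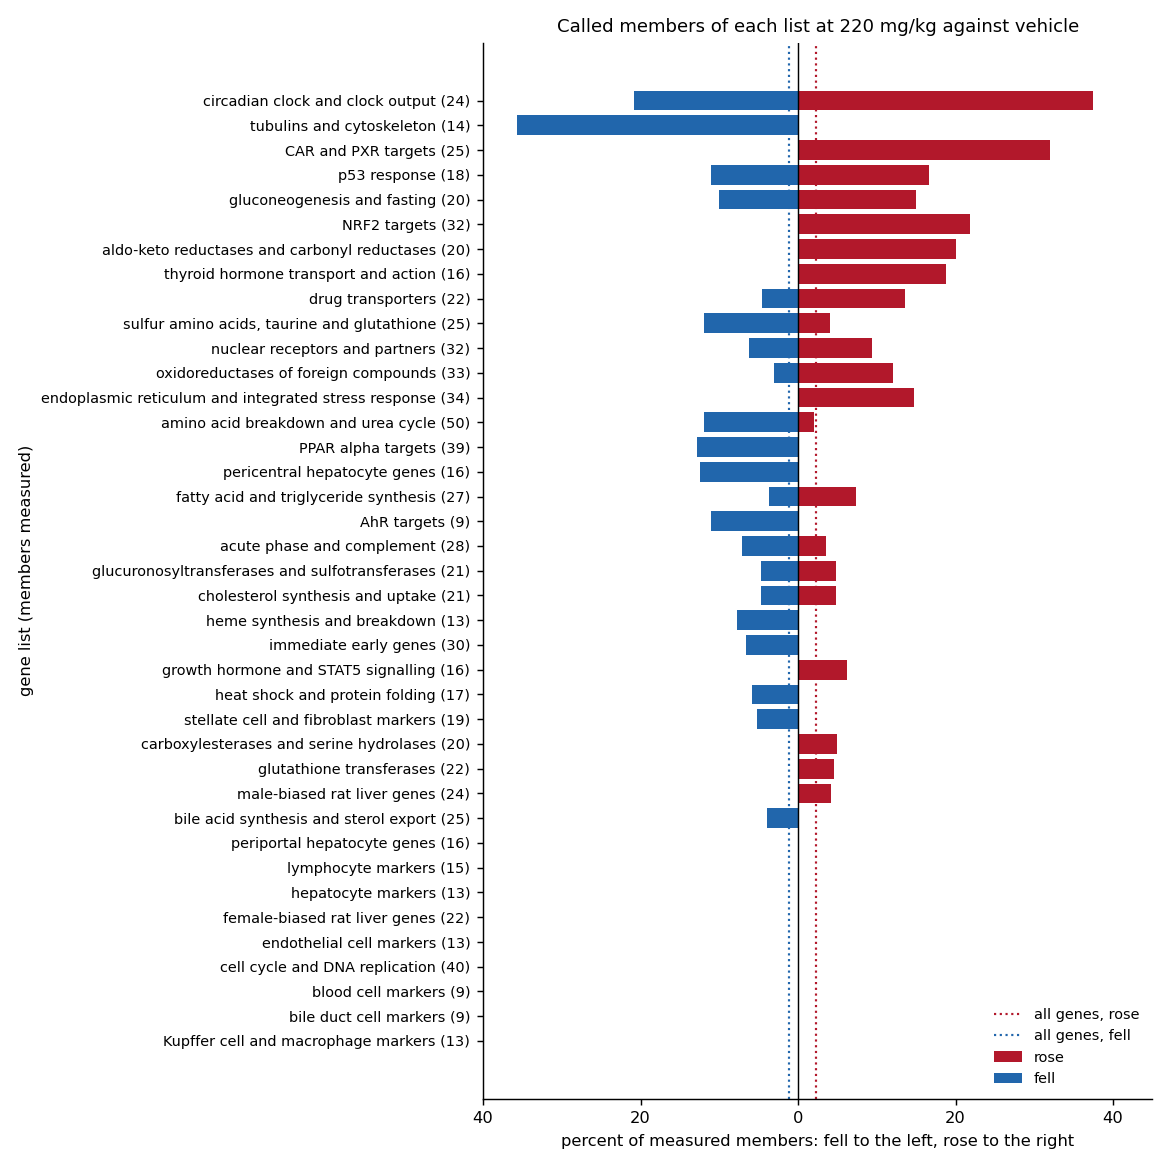
Percent of the measured members of each gene list that rose (red, to the right) or fell (blue, to the left) at 220 mg/kg against vehicle, with the number measured in parentheses. Dotted lines mark the share of all 14217 genes, 2.25% upward and 1.18% downward; the clock list reaches farthest to the right and the cytoskeleton list farthest to the left.

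Clock genes moved in both directions. The hour at which each group was sampled is not given, so its part in these changes cannot be told apart from that of the dose. Of 24 measured clock and clock-output genes, 9 rose and 5 fell. Those that rose were the output factors Dbp and Tef, the repressors Nr1d1, Nr1d2, Per1, Per3, Cry2 and Bhlhe40, and the P450 reductase gene Por. Fallen genes were the activators Bmal1 and Npas2, the repressors Cry1 and Nfil3, and Rora. As background, BMAL1 binds the E-box CACGTG, and the receptors ROR and REV-ERB bind an element with the core TAGGTCA; the promoters of an output gene, a repressor and an activator that hold these letters are printed here because the activator moved against the other genes. The sequences are RefSeq promoter windows on GRCr8 that span the annotated start site, written 5′ to 3′ along the gene's strand with the motif in capitals: Tef at chr7:115206577-115206876, plus strand, Nr1d1 at chr10:84229405-84229704, minus strand, and Bmal1 at chr1:176766078-176766377, plus strand.
Tef: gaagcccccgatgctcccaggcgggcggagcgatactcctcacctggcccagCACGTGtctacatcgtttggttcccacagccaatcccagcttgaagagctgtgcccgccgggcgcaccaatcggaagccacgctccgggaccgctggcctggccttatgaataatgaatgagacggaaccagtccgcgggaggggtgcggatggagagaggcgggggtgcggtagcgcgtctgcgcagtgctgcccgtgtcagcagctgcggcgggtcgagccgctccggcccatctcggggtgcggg
Nr1d1: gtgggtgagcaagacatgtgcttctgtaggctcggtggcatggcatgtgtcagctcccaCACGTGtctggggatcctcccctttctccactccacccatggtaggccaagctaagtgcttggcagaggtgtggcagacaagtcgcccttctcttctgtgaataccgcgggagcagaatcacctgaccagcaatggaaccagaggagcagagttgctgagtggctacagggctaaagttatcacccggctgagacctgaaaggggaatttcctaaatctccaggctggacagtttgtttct
Bmal1: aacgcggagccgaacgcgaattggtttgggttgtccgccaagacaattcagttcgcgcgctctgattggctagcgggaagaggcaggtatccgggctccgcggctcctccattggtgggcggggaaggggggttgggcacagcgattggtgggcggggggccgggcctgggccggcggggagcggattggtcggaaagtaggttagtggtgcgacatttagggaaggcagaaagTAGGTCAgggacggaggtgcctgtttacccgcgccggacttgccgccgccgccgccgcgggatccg

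Searched on both strands, CACGTG was present in the windows of 3 of the 9 risen clock genes (Bhlhe40, Nr1d1 and Tef) and of 0 of the 4 fallen ones that had a window. Of all 33469 windows, 6.42% held it. TAGGTCA was found in Bmal1 among the fallen genes and in Por among the risen ones, against 2.63% of all windows. These matches describe the letters of the windows and no binding was measured.

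Dbp, a bZIP activator of rhythmic liver genes, had log2 values of 10.17, 9.67 and 9.34 in the 220 mg/kg arrays, against 5.80, 6.34, 5.96, 5.97 and 5.73 in the vehicle arrays. The lowest dosed array lay far above the highest vehicle array, with a log2 change of 3.77 ± 0.27 (limma, adjusted p = 3.78e-07), the smallest p of the whole comparison. Nr1d1, which encodes REV-ERB alpha, had 9.05, 8.75 and 8.37 in the 220 mg/kg arrays, against 6.42, 7.72, 6.66, 6.67 and 6.39 in the vehicle arrays. Vehicle replicate 2 was the highest of its group, and still lay below every dosed array; the log2 change was 1.95 ± 0.29 (adjusted p = 0.000783). Nr1d2, which encodes REV-ERB beta, had 10.08, 10.04 and 9.98 in the 220 mg/kg arrays, against 8.14, 9.18, 8.40, 8.38 and 8.32 in the vehicle arrays, and the dosed arrays were close to each other. Its log2 change was 1.55 ± 0.17 (adjusted p = 3.72e-05). Of the other probe sets of Nr1d2, 1 changed by 1.36 and was called, and 1 changed by 0.23 and was not called.

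Per3, a period protein gene, had 7.28, 6.57 and 6.73 in the 220 mg/kg arrays, against 5.10, 4.85, 5.13, 5.24 and 5.51 in the vehicle arrays, with a log2 change of 1.69 ± 0.23 (adjusted p = 0.000343). Another probe set of the gene had a log2 change of -0.03 and was not called, and the mean of the 2 changed by 0.83. Tef, a relative of Dbp, had 9.33, 9.25 and 9.18 in the 220 mg/kg arrays, against 8.38, 8.58, 8.65, 8.24 and 8.50 in the vehicle arrays, and Cry2, a repressor of the loop, had 8.82, 8.72 and 8.76 in the 220 mg/kg arrays, against 7.83, 7.48, 8.09, 7.84 and 8.05 in the vehicle arrays. Both were separate from vehicle in every array, with log2 changes of 0.78 ± 0.10 (adjusted p = 0.000138) and 0.91 ± 0.11 (adjusted p = 8.98e-05). Smaller rises were those of Per1 at 0.58 ± 0.11 (adjusted p = 0.00623) and Bhlhe40 at 1.02 ± 0.28 (adjusted p = 0.0478); leaving out 1 array ended the call of Bhlhe40 in 7 of the 8 fits (adjusted p up to 0.205).

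On the opposite side, Bmal1 had 6.97, 7.01 and 7.05 in the 220 mg/kg arrays, against 8.70, 7.90, 8.58, 8.64 and 8.40 in the vehicle arrays. The 3 dosed arrays were nearly equal and all lower than vehicle, with a log2 change of -1.44 ± 0.23 (adjusted p = 0.00166). Nfil3, a repressor that binds the same sites as Dbp, had 8.19, 8.42 and 8.57 in the 220 mg/kg arrays, against 9.68, 10.04, 9.70, 10.37 and 10.65 in the vehicle arrays. The log2 change was -1.70 ± 0.23 (adjusted p = 0.000397). Npas2, a partner of BMAL1, had 7.47, 7.91 and 7.50 in the 220 mg/kg arrays, against 8.83, 8.65, 8.68, 8.72 and 8.74 in the vehicle arrays. This gave a log2 change of -1.10 ± 0.24 (adjusted p = 0.0167), with all dosed arrays below the narrow vehicle range. On leaving out 220 mg/kg replicate 1 or 3, its adjusted p became 0.0704 or 0.0754. Cry1 fell by 0.94 on the log2 scale (SE 0.18, adjusted p = 0.00545), and Rora, an activator of Bmal1, changed by -0.59 ± 0.15 (adjusted p = 0.0356). Leaving out 1 array ended the call of Rora in 7 of the 8 fits (adjusted p up to 0.214), and with the mean of its probe sets Rora changed by -0.19 (adjusted p = 0.421). Per2 with -0.08 ± 0.07, Clock with -0.23 ± 0.11 and Hlf with -0.00 ± 0.14 were not called.

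**Figure D3:**
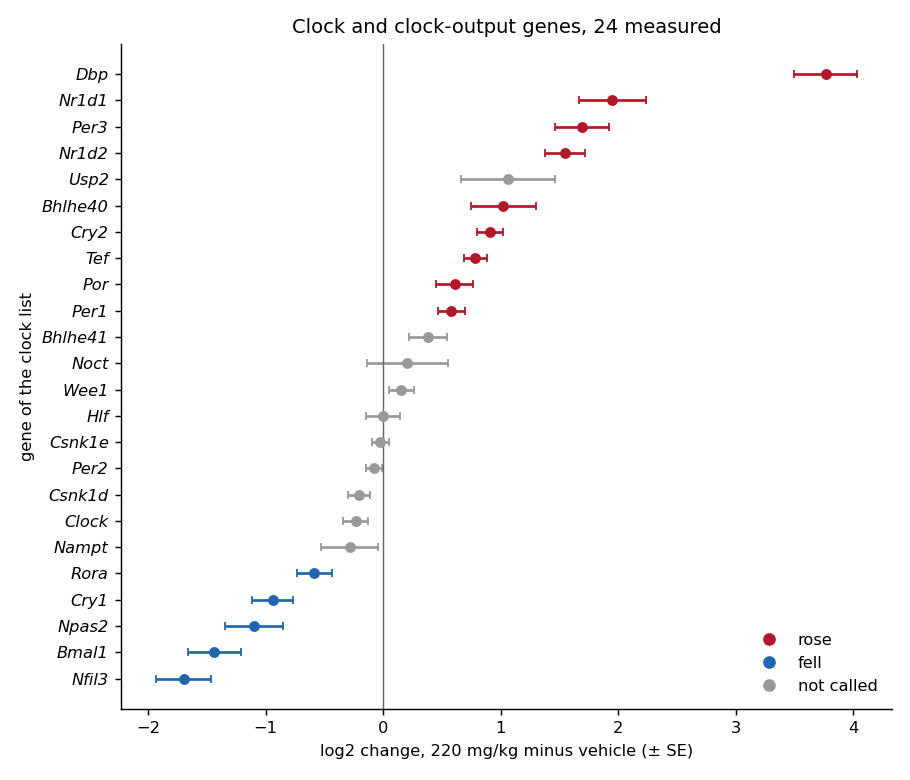
Log2 change, 220 mg/kg minus vehicle, with its standard error (horizontal axis) for each of the 24 measured clock and clock-output genes (vertical axis), from 3 dosed and 5 vehicle arrays. Red marks the 9 that rose, with Dbp at the top at 3.77, blue the 5 that fell, with Nfil3 at the bottom at -1.70, and grey those not called.

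Genes for the clearance of foreign compounds formed the next group. Of 25 measured CAR and PXR targets, 8 rose and 0 fell, with a median log2 change of 0.32 over all 25. At an unadjusted p under 0.05, 13 were higher and 3 lower, while 16.6% of all genes differed in either direction. The rises ran from the basolateral efflux pump Abcc3 and the carboxylesterase Ces2c, which were more than 4-fold higher, to the hydroxylase Cyp2c6v1 with 0.32 ± 0.07 (adjusted p = 0.0203). Without 220 mg/kg replicate 1 or 3, Cyp2c6v1 was not called (adjusted p = 0.0826 or 0.117). Abcc3, which exports glucuronides to the blood, had log2 values of 9.18, 8.48 and 9.57 in the 220 mg/kg arrays, against 6.38, 6.36, 6.63, 6.83 and 6.72 in the vehicle arrays. Dosed replicate 2 was the lowest of the 3, still above every vehicle array, and the log2 change was 2.49 ± 0.33 (adjusted p = 0.000288). Ces2c, which cleaves ester bonds, had 11.37, 10.40 and 11.13 in the 220 mg/kg arrays, against 8.76, 8.92, 8.75, 8.87 and 8.82 in the vehicle arrays. The vehicle arrays lay close together and dosed replicate 2 was again the lowest, with a log2 change of 2.14 ± 0.21 (adjusted p = 1.03e-05).

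The glucuronosyltransferase Ugt2b1 had 13.87, 13.60 and 13.98 in the 220 mg/kg arrays, against 12.76, 12.48, 12.46, 12.62 and 12.83 in the vehicle arrays. Here the log2 change was 1.19 ± 0.13 (adjusted p = 4.46e-05). Abcb1a, which encodes P-glycoprotein, had 8.36, 8.68 and 8.13 in the 220 mg/kg arrays, against 7.25, 7.24, 7.25, 7.49 and 7.40 in the vehicle arrays. On the log2 scale the change was 1.06 ± 0.15 (adjusted p = 0.000565), and here replicate 2 was the highest dosed array. Aldh1a1, an oxidase of retinaldehyde and other aldehydes, had 13.35, 13.10 and 13.43 in the 220 mg/kg arrays, against 12.38, 12.49, 12.41, 12.44 and 12.30 in the vehicle arrays. The group means differed by 0.89 ± 0.17 in log2 (adjusted p = 0.00553). Each of these had no overlap between groups. Cyp3a23-3a1, the inducible CYP3A oxidase, had 14.04, 13.66 and 13.92 in the 220 mg/kg arrays, against 13.27, 13.11, 13.04, 13.37 and 13.32 in the vehicle arrays. The fitted log2 change was 0.65 ± 0.14 (adjusted p = 0.0129), and Por, the electron donor of the P450 enzymes, had 0.61 ± 0.16 (adjusted p = 0.0408). Calls were lost for Cyp3a23-3a1 without 220 mg/kg replicates 1 or 3 (adjusted p 0.0601 to 0.0715) and Por without 220 mg/kg replicates 1, 2 or 3 or vehicle replicates 1, 2 or 5 (adjusted p 0.0515 to 0.173); with the mean of its probe sets, Por had an adjusted p of 0.221.

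Several members of the list were not called. Cyp2b1 and Cyp2b2 are not among the genes of the list and were not examined. The listed Cyp2b genes that were measured, Cyp2b3 and Cyp2b12, changed by -0.12 ± 0.07 and -0.27 ± 0.09 (adjusted p = 0.456 and 0.0962). Gsta3, a glutathione transferase, had 9.11, 8.79 and 9.89 in the 220 mg/kg arrays, against 7.78, 7.97, 8.04, 8.13 and 7.91 in the vehicle arrays, all higher than vehicle, with a log2 change of 1.30 ± 0.43 (adjusted p = 0.108). It was called with the arrays of the 2 groups alone (adjusted p = 0.00666) and with array weights (adjusted p = 0.00653). Akr1b7, an aldo-keto reductase, had 4.31, 6.33 and 7.37 in the 220 mg/kg arrays, against 4.39, 4.92, 4.87, 4.70 and 4.64 in the vehicle arrays; its dosed arrays lay on both sides of the vehicle arrays, giving 1.30 ± 0.72 (adjusted p = 0.392). The microsomal epoxide hydrolase Ephx1 changed by 0.58 ± 0.17 (adjusted p = 0.0715), the heme-synthesis enzyme Alas1 by 0.67 ± 0.23 (adjusted p = 0.13) and the canalicular pump Abcc2 by 0.20 ± 0.09 (adjusted p = 0.278). Ephx1 was called in 5 alternatives (adjusted p 0.000628 to 0.0492), among them the 2 groups alone, and Alas1 with array weights (adjusted p = 0.00658). For the constitutive hydroxylases Cyp3a2 and Cyp2c11 the changes were 0.01 ± 0.07 and -0.12 ± 0.10, and for the receptor CAR itself (Nr1i3) 0.10 ± 0.23. The receptor PXR (Nr1i2) had 9.46, 9.60 and 9.49 in the 220 mg/kg arrays, against 9.81, 9.84, 9.92, 9.86 and 9.79 in the vehicle arrays. The dosed arrays did not overlap vehicle, and the log2 change was -0.33 ± 0.07 (adjusted p = 0.0188). The call was lost for Nr1i2 without 220 mg/kg replicates 1 or 3 (adjusted p 0.0779 to 0.0805).

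Among 32 measured NRF2 targets 7 rose and 0 fell, with a median log2 change of 0.30; 28 of the 32 changes were above 0, and at an unadjusted p under 0.05 15 were higher and 0 lower. Abcc3 belongs to this list too, as does Trib3, described with the stress response. Akr7a3, which reduces aflatoxin dialdehyde, had 12.80, 11.91 and 12.94 in the 220 mg/kg arrays, against 11.45, 11.05, 11.51, 11.39 and 11.60 in the vehicle arrays. The log2 change was 1.15 ± 0.29 (adjusted p = 0.0306), with replicate 2 well below the other dosed arrays. Aox1, an aldehyde oxidase, changed by 0.61 ± 0.12 (adjusted p = 0.00623), Gsta4, which conjugates products of lipid peroxidation, by 0.48 ± 0.11 (adjusted p = 0.0168), Ptgr1, a reductase of eicosanoids and enals, by 0.44 ± 0.09 (adjusted p = 0.012), and the aldehyde reductase Akr7a2 by 0.37 ± 0.08 (adjusted p = 0.012). On leaving out 1 array the call was lost for Akr7a3 without 220 mg/kg replicates 1 or 3 or vehicle replicates 2 or 4 (adjusted p 0.0622 to 0.156), Aox1 without 220 mg/kg replicate 3 (adjusted p = 0.0516), Gsta4 without 220 mg/kg replicates 1, 2 or 3 (adjusted p 0.0574 to 0.0639), Ptgr1 without 220 mg/kg replicates 1 or 2 (adjusted p 0.0543 to 0.0583), and Akr7a2 without 220 mg/kg replicate 1 (adjusted p = 0.0598). The most used markers were not called: Nqo1, a quinone reductase, had 8.60, 9.31 and 9.23 in the 220 mg/kg arrays, against 8.20, 8.004, 8.22, 8.21 and 8.56 in the vehicle arrays, with 0.80 ± 0.25 (adjusted p = 0.0956), although the arrays of the 2 groups alone gave an adjusted p of 0.0239 and array weights 0.0193. Heme oxygenase Hmox1 had 0.35 ± 0.17 and the glutathione-synthesis subunit Gclc 0.05 ± 0.11 (adjusted p = 0.316 and 0.869).

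Of 9 measured AhR targets, 0 rose by limma's adjusted p and 1 fell, with 1 higher and 1 lower at an unadjusted p under 0.05. Cyp1a2, a constitutive hydroxylase of aromatic amines, had 12.65, 12.95 and 12.99 in the 220 mg/kg arrays, against 13.40, 13.21, 13.30, 13.44 and 13.44 in the vehicle arrays. The dosed arrays did not overlap vehicle, and the log2 change was -0.49 ± 0.08 (adjusted p = 0.00336). Cyp1a1, the usual indicator of receptor activation, had 6.39, 6.16 and 6.60 in the 220 mg/kg arrays, against 5.51, 5.79, 5.75, 5.84 and 5.58 in the vehicle arrays; the dosed arrays were all higher, with 0.69 ± 0.34 (adjusted p = 0.324). With the arrays of the 2 groups alone it was called (adjusted p = 0.0102), as it was with array weights (adjusted p = 0.0475). In the remaining enzyme lists, 4 of 33 oxidoreductases rose and 1 fell, 1 of 21 glucuronosyltransferases and sulfotransferases rose (Ugt2b1) and 1 fell (the sulfate activator Papss2, -0.33 ± 0.07), 4 of 20 aldo-keto and carbonyl reductases rose, 1 of 22 glutathione transferases (Gsta4) rose and 1 of 20 carboxylesterases and serine hydrolases (Ces2c) rose. At limma's unadjusted p under 0.05, 10 of 22 glutathione transferases were higher and 0 lower. The counts were 8 and 3 for oxidoreductases, 6 and 3 for glucuronosyltransferases and sulfotransferases, and 4 and 0 for aldo-keto and carbonyl reductases. For carboxylesterases and serine hydrolases they were 2 and 1. Over all genes, limma called 3.43%, and 16.6% had an unadjusted p under 0.05, in either direction. The serum-type esterase Bche with 0.21 ± 0.12 and the abundant liver esterase Ces1d with -0.22 ± 0.13 were not called. Papss2 lost its call without 220 mg/kg replicate 1 or 3, with the 2 groups alone and with the mean of its probe sets (adjusted p = 0.0782, 0.0734, 0.0511 and 0.113). Of 22 drug transporters 3 rose, Abcc3, Abcb1a and the uptake carrier Slco2b1 (0.40 ± 0.08, adjusted p = 0.00651, or 0.265 with the mean of its probe sets), and 1 fell, the phospholipid floppase Abcb4 (-0.42 ± 0.08, adjusted p = 0.00545). Cryl1, a crystallin-related dehydrogenase of gulonate, rose by 0.96 ± 0.21 (adjusted p = 0.0143). Its call was lost without 220 mg/kg replicate 1 or 3 (adjusted p = 0.0697 or 0.0998). Among the risen oxidoreductases, Adh4 lost its call in 7 of the 8 fits that left out 1 array (adjusted p up to 0.225). Among the risen reductases, Cbr4 did so in 7 of the 8 fits (adjusted p up to 0.309).

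Lipid genes changed in both directions, and the called PPAR alpha targets were all lower. Scd, a desaturase that converts stearate to oleate, had 8.19, 9.16 and 8.73 in the 220 mg/kg arrays, against 11.29, 11.82, 12.15, 10.24 and 10.92 in the vehicle arrays. Both groups were wide but separate, with a log2 change of -2.59 ± 0.54 (adjusted p = 0.0111), and the call was lost without 220 mg/kg replicate 1 (adjusted p = 0.0592). Fasn, the fatty acid synthase upstream of it, had 10.83, 10.87 and 11.24 in the 220 mg/kg arrays, against 10.25, 10.31, 11.31, 10.42 and 10.83 in the vehicle arrays, overlapping groups and a log2 change of 0.36 ± 0.27 (adjusted p = 0.552). Of 27 measured genes of fatty acid and triglyceride synthesis, Scd was the 1 that fell, while 2 rose: Thrsp, a lipogenic thyroid-responsive gene (0.96 ± 0.22, adjusted p = 0.0203), and Lpin2, a phosphatidate phosphatase (0.61 ± 0.16, adjusted p = 0.0438). Single left-out arrays ended the call for Thrsp without 220 mg/kg replicates 1 or 3 or vehicle replicate 4 (adjusted p 0.0523 to 0.0933) and Lpin2 without 220 mg/kg replicates 1, 2 or 3 or vehicle replicates 2, 3, 4 or 5 (adjusted p 0.0551 to 0.161). Taking the mean of the probe sets, Thrsp changed by 0.97 (adjusted p = 0.213) and Lpin2 changed by 0.32 (adjusted p = 0.111). At limma's unadjusted p under 0.05, 3 of the 27 were higher and 6 lower, while 16.6% of all genes differed in either direction. Lpin1, with -0.88 ± 0.25 (adjusted p = 0.0591), was not called.

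Among PPAR alpha targets 5 of 39 measured genes fell and 0 rose, with a median log2 change of -0.15; at an unadjusted p under 0.05, 2 were higher and 17 lower. Angptl4, a secreted inhibitor of lipoprotein lipase, had 10.11, 9.99 and 9.71 in the 220 mg/kg arrays, against 11.50, 11.62, 11.48, 11.52 and 10.87 in the vehicle arrays. This gave a log2 change of -1.46 ± 0.27 (adjusted p = 0.00545). Pdk4, the kinase that shuts off pyruvate dehydrogenase in fasting, had 8.29, 9.09 and 9.10 in the 220 mg/kg arrays, against 10.27, 10.27, 10.33, 10.63 and 9.85 in the vehicle arrays. Here the log2 change was -1.44 ± 0.27 (adjusted p = 0.00597), or -0.94 with the mean of its probe sets. Plin2, the coat protein of lipid droplets, had 12.05, 12.45 and 12.03 in the 220 mg/kg arrays, against 13.06, 13.30, 13.53, 13.33 and 12.98 in the vehicle arrays. On the log2 scale the change was -1.07 ± 0.19 (adjusted p = 0.00485). Another probe set of Plin2 changed by -0.48 and was not called. In all 3 genes every dosed array was lower than every vehicle array. The thioesterase Acot4 (-0.68 ± 0.17, adjusted p = 0.031) and the fatty acid hydroxylase Cyp4a3 (-0.58 ± 0.14, adjusted p = 0.0304) also fell, and leaving out 1 array ended the call of Acot4 in 6 of the 8 fits (adjusted p up to 0.118) and of Cyp4a3 in 6 of the 8 fits (adjusted p up to 0.141). Cyp4a1 had -0.60 ± 0.17 (adjusted p = 0.0543), just outside the threshold, and was called in 7 alternatives (adjusted p 0.0136 to 0.047). The receptor Ppara itself had 0.11 ± 0.17. Enzymes of beta-oxidation in the list, such as Cpt1a (-0.13 ± 0.15), Acadm (-0.18 ± 0.06) and Ehhadh (-0.23 ± 0.11), were not called.

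Cholesterol synthesis and uptake genes held 1 riser and 1 faller in 21. Insig2, which retains the sterol-sensing complex in the endoplasmic reticulum, had -0.63 ± 0.14 (adjusted p = 0.0185), and Stard4, a cholesterol carrier, 0.67 ± 0.14 (adjusted p = 0.00972); Sqle, squalene epoxidase, changed by 0.39 ± 0.27 and was not called. With 1 array left out, the call was lost for Insig2 without 220 mg/kg replicates 1 or 3 (adjusted p 0.0629 to 0.104) and Stard4 without 220 mg/kg replicate 3 (adjusted p = 0.0547). For the mean of its probe sets, Stard4 changed by 0.23 (adjusted p = 0.274). Of 25 genes of bile acid synthesis and sterol export, Abcb4 was the 1 called. Cyp7a1, which starts the conversion of cholesterol to bile acids, had 11.44, 12.07 and 11.11 in the 220 mg/kg arrays, against 10.54, 9.74, 11.55, 11.82 and 11.38 in the vehicle arrays, with a wide vehicle group that overlapped the dosed one and a log2 change of 0.53 ± 0.38 (adjusted p = 0.532). Cers6, a ceramide synthase, was among the largest rises and had 9.23, 8.88 and 9.45 in the 220 mg/kg arrays, against 8.36, 7.39, 7.85, 7.48 and 7.82 in the vehicle arrays. The group means differed by 1.41 ± 0.18 in log2 (adjusted p = 0.000231).

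Some genes of the stress response that ATF4 controls rose. Of 34 measured genes listed for the endoplasmic reticulum and the integrated stress response, 5 rose and 0 fell: Ddit4, Trib3, Chac1, Atf4 and Psph. At an unadjusted p under 0.05, 15 were higher and 3 lower. Chac1 and Trib3 hold within the promoter window the C/EBP-ATF element core TGATGNAAN, the site type through which ATF4 is known to act, and both windows are printed with the match in capitals, on the opposite strand in each. The Chac1 window lies at chr3:126795881-126796180, plus strand, and the Trib3 window at chr3:161275484-161275783, minus strand.
Chac1: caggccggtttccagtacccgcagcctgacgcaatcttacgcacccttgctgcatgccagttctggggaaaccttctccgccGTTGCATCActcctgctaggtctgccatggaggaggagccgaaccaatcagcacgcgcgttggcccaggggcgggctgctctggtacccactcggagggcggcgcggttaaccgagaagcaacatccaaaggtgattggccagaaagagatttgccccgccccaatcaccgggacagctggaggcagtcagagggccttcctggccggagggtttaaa
Trib3: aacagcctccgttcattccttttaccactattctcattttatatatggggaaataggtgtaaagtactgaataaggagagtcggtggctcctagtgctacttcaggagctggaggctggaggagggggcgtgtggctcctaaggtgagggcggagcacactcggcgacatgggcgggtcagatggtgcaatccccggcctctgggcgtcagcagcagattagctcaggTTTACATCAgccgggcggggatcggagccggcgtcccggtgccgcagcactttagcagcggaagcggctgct

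Both strands were searched, 2 of the 5 risen genes held the core, and 3.97% of all 33469 windows did. As for the clock windows, a match is a description of the letters.

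Chac1, which breaks down glutathione, had 9.66, 9.55 and 9.90 in the 220 mg/kg arrays, against 7.71, 7.70, 8.27, 8.06 and 7.76 in the vehicle arrays. The dosed arrays were close together and all above vehicle, with a log2 change of 1.80 ± 0.22 (adjusted p = 0.000103). Trib3, a pseudokinase that restrains ATF4 and AKT, had 10.68, 10.05 and 11.11 in the 220 mg/kg arrays, against 8.03, 8.54, 9.57, 8.64 and 8.26 in the vehicle arrays. The fitted log2 change was 2.01 ± 0.33 (adjusted p = 0.00228); its other probe sets gave 2.68 and 2.45. Ddit4, an inhibitor of mTORC1, had 10.09, 9.40 and 9.71 in the 220 mg/kg arrays, against 7.26, 6.70, 7.99, 7.37 and 7.60 in the vehicle arrays. The log2 change was 2.35 ± 0.41 (adjusted p = 0.00361). Atf4 itself had 12.38, 11.99 and 12.15 in the 220 mg/kg arrays, against 11.47, 11.36, 11.52, 11.73 and 11.59 in the vehicle arrays. This gave a log2 change of 0.64 ± 0.10 (adjusted p = 0.00102), and the serine-synthesis phosphatase Psph had 0.62 ± 0.16 (adjusted p = 0.0321). Leaving out 1 array ended the call of Psph in 7 of the 8 fits (adjusted p up to 0.208). Chaperones of the same list were not called, with changes of -0.01 ± 0.09 for Hspa5, -0.11 ± 0.10 for Hsp90b1 and -0.00 ± 0.12 for Pdia4. Asns, the asparagine synthetase, had 1.25 ± 0.40 (adjusted p = 0.0978) and Ddit3, which encodes CHOP, 0.42 ± 0.15 (adjusted p = 0.134). In the heat shock list 1 of 17 fell, Hspa1a with -0.67 ± 0.18 (adjusted p = 0.049), and that call was lost in 6 of the 8 fits that left out 1 array (adjusted p up to 0.214). Of the 17 changes, 13 were below 0, with a median of -0.17. At limma's unadjusted p under 0.05, 0 were higher and 6 lower. Over all genes, 1.18% fell by adjusted p, and 16.6% had an unadjusted p under 0.05 in either direction.

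**Figure D4:**
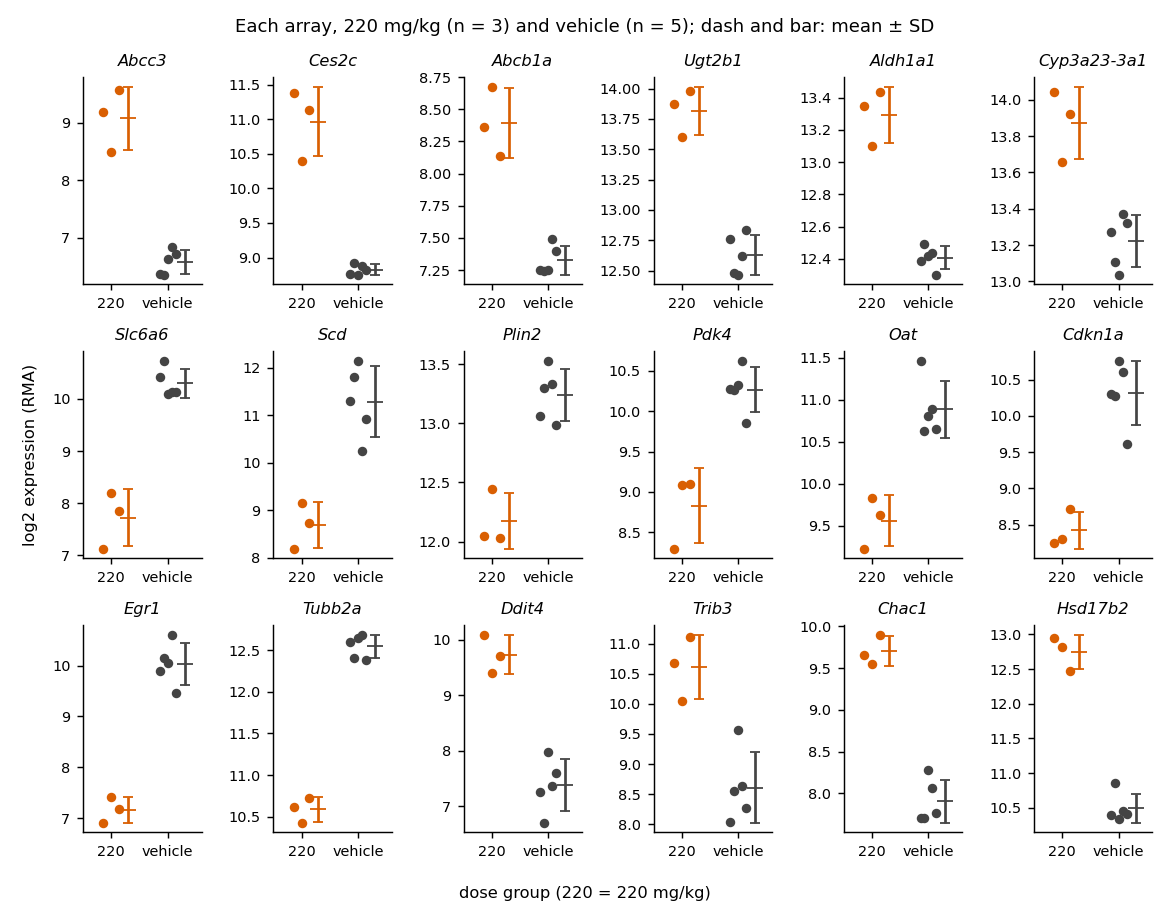
Log2 expression (vertical axis, RMA values) on each array for 18 genes, with the 3 arrays at 220 mg/kg in orange at the left and the 5 vehicle arrays in grey at the right of each panel, and the mean with its SD beside them. The upper row holds genes of foreign-compound clearance, all higher at 220 mg/kg; the middle row and the first 2 panels of the lower row hold genes that were lower; in none of the 18 do the groups overlap.

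Amino acid breakdown moved downward in part. Of 50 measured genes in the list for the urea cycle and for breakdown of amino acids, 6 fell and 1 rose. Oat, the ornithine aminotransferase of pericentral hepatocytes, had 9.22, 9.82 and 9.63 in the 220 mg/kg arrays, against 11.47, 10.63, 10.80, 10.89 and 10.65 in the vehicle arrays. Here the log2 change was -1.33 ± 0.24 (adjusted p = 0.00485), with all dosed arrays lower. With Cyp1a2 it made the 2 falls among 16 pericentral genes, of which 0 were higher and 6 lower at an unadjusted p under 0.05. Of 16 periportal genes limma called 0, with 4 higher and 1 lower at an unadjusted p under 0.05. The transsulfuration enzymes Cth and Cbs changed by -0.66 ± 0.16 (adjusted p = 0.0236) and -0.52 ± 0.11 (adjusted p = 0.0122), the methyl-group regulator Gnmt by -0.54 ± 0.12 (adjusted p = 0.016), the proline oxidase Prodh by -0.54 ± 0.13 (adjusted p = 0.021) and the kynureninase Kynu by -0.43 ± 0.11 (adjusted p = 0.04). The riser was Shmt1, which links serine to folate (0.29 ± 0.07, adjusted p = 0.0234). Calls were lost for Cth without 220 mg/kg replicate 2 (adjusted p = 0.196), Cbs without 220 mg/kg replicates 1 or 2 (adjusted p 0.0557 to 0.0951), Gnmt without 220 mg/kg replicates 1 or 3 (adjusted p 0.0547 to 0.0755), and Prodh without 220 mg/kg replicates 1 or 2 or vehicle replicate 4 (adjusted p 0.0573 to 0.116); they were lost for Kynu in 8 of the 8 fits (adjusted p up to 0.154) and Shmt1 in 5 of the 8 fits (adjusted p up to 0.102). With the mean of its probe sets, Prodh changed by -0.33 (adjusted p = 0.0604). Urea cycle enzymes were not called, Cps1 at -0.10 ± 0.06, Ass1 at -0.30 ± 0.25 and Arg1 at 0.17 ± 0.07.

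Slc6a6, the taurine transporter, had the smallest p of the genes that fell. Its log2 values were 7.12, 8.19 and 7.86 in the 220 mg/kg arrays, against 10.41, 10.73, 10.09, 10.13 and 10.13 in the vehicle arrays, with every dosed array far below the lowest vehicle array, and its log2 change was -2.58 ± 0.24 (adjusted p = 1.03e-05). In the list of sulfur amino acids, taurine and glutathione, Chac1 rose while Slc6a6, Cth and Cbs fell, of 25 measured. Genes of gluconeogenesis and fasting held 3 risers, Foxo3 (0.76 ± 0.17), Pck2 (0.60 ± 0.15) and Slc37a4 (0.32 ± 0.08), and 2 fallers, Pdk4 and the cAMP-responsive Crem (-0.48 ± 0.12), of 20. On leaving out 1 array the call was lost for Foxo3 without 220 mg/kg replicates 2 or 3 (adjusted p 0.106 to 0.13) and Crem without 220 mg/kg replicates 1, 2 or 3 or vehicle replicates 1 or 3 (adjusted p 0.0563 to 0.0927), and for Pck2 in 7 of the 8 fits (adjusted p up to 0.196) and Slc37a4 in 5 of the 8 fits (adjusted p up to 0.102); with the mean of the probe sets, Foxo3 changed by 0.14 (adjusted p = 0.375), Crem changed by -0.34 (adjusted p = 0.169) and Pck2 by 0.40, still called.

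Growth and cell cycle control genes changed in both directions. Cdkn1a, the cyclin-dependent kinase inhibitor p21, had 8.25, 8.30 and 8.71 in the 220 mg/kg arrays, against 10.31, 10.28, 10.76, 10.61 and 9.61 in the vehicle arrays. On the log2 scale the change was -1.89 ± 0.22 (adjusted p = 7.33e-05) with dosed arrays all lower than vehicle. Of 18 measured p53 response genes, Cdkn1a and the arrest gene Rprm (-1.51 ± 0.33, adjusted p = 0.0151) fell, while the apoptosis gene Bbc3 (0.67 ± 0.11, adjusted p = 0.00282), Tp53inp1 (0.52 ± 0.11, adjusted p = 0.0162) and Sesn1 (0.31 ± 0.08, adjusted p = 0.0438) rose; Mdm2, the feedback ubiquitin ligase of p53, had 0.25 ± 0.10 and was not called. Single left-out arrays ended the call for Rprm without 220 mg/kg replicates 1 or 3 (adjusted p 0.062 to 0.0776) and Tp53inp1 without 220 mg/kg replicates 1 or 3 (adjusted p 0.0762 to 0.0818), and for Sesn1 in 7 of the 8 fits (adjusted p up to 0.188). Taking the mean of the probe sets, Sesn1 changed by 0.14 (adjusted p = 0.38). Of 40 cell cycle genes, limma called 0 at an adjusted p under 0.05, with 3 higher and 0 lower at an unadjusted p under 0.05, and the proliferation marker Mki67 had 5.29, 6.18 and 5.35 in the 220 mg/kg arrays, against 4.64, 5.12, 5.13, 4.87 and 5.97 in the vehicle arrays, overlapping, with 0.46 ± 0.35.

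Egr1, a growth-factor-responsive transcription factor, had 6.90, 7.41 and 7.17 in the 220 mg/kg arrays, against 9.90, 10.15, 10.06, 10.61 and 9.47 in the vehicle arrays. Every dosed array was below every vehicle array by a wide margin, with a log2 change of -2.88 ± 0.29 (adjusted p = 1.57e-05). It and Egr2 were the 2 called of 30 immediate early genes; Egr2 changed by -0.37 ± 0.10 (adjusted p = 0.0468), and its call was lost in 6 of the 8 fits that left out 1 array (adjusted p up to 0.229); with the mean of its probe sets Egr2 changed by -0.15 (adjusted p = 0.457). Fos had 0.08 ± 0.12 and Junb -0.42 ± 0.17, neither called. Dusp1 with 1.35 ± 0.38 and Atf3 with 1.05 ± 0.29 were not called either (adjusted p = 0.0608 and 0.0529). At limma's unadjusted p under 0.05, 5 of the 30 were higher and 4 lower, while 16.6% of all genes differed in either direction. Myc, a growth regulator, had 8.45, 8.81 and 8.13 in the 220 mg/kg arrays, against 6.78, 6.83, 7.33, 7.25 and 7.93 in the vehicle arrays, all dosed arrays higher, a log2 change of 1.24 ± 0.34 (adjusted p = 0.0519), just outside the threshold; it was called in 5 alternatives (adjusted p 0.0187 to 0.0493).

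In the cytoskeleton list 5 of 14 measured genes fell and 0 rose, with a median of -0.24, and 1 was higher at an unadjusted p under 0.05. Tubb2a, a beta-tubulin, had 10.61, 10.42 and 10.73 in the 220 mg/kg arrays, against 12.60, 12.40, 12.65, 12.69 and 12.39 in the vehicle arrays. The group means differed by -1.96 ± 0.24 in log2 (adjusted p = 0.000117), with no overlap between groups. Falls of less than 1 log2 unit were those of the actin gene Actg1 (-0.77 ± 0.20), the alpha-tubulin Tuba4a (-0.69 ± 0.16), the tropomyosin Tpm4 (-0.54 ± 0.09) and the beta-tubulin Tubb4b (-0.52 ± 0.14). With 1 array left out, the call was lost for Tuba4a without 220 mg/kg replicates 1 or 2 (adjusted p 0.0722 to 0.0828), and for Actg1 in 7 of the 8 fits (adjusted p up to 0.227) and Tubb4b in 8 of the 8 fits (adjusted p up to 0.208). Tubulin genes are close in sequence, and how far their probe sets share signal was not tested.

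Among hormone genes, 3 of 16 genes of thyroid hormone transport and action rose: Thrsp, the hormone-responsive factor Klf9 (0.83 ± 0.19, adjusted p = 0.0177) and the receptor Thrb (0.50 ± 0.10, adjusted p = 0.00586). The deiodinase Dio1 with -0.02 ± 0.13 and the thyroxine-binding globulin Serpina7 with -0.45 ± 0.31 were not called. Calls were lost for Klf9 without 220 mg/kg replicates 1, 2 or 3 (adjusted p 0.0611 to 0.0646) and Thrb without 220 mg/kg replicate 2 (adjusted p = 0.0559); taking the mean of the probe sets, Klf9 had an adjusted p of 0.342 and Thrb of 0.189. Hsd17b2, which oxidises oestradiol and testosterone to weaker steroids, had 12.95, 12.82 and 12.47 in the 220 mg/kg arrays, against 10.39, 10.86, 10.34, 10.45 and 10.42 in the vehicle arrays. The dosed arrays lay well above vehicle, with a log2 change of 2.25 ± 0.20 (adjusted p = 5.41e-06). Hsd17b2 was the 1 called gene of 24 male-biased genes, of which 18 had changes below 0. At limma's unadjusted p under 0.05, 1 male-biased gene was higher and 5 were lower. Limma called 0 of 22 female-biased genes, with 3 higher and 5 lower at an unadjusted p under 0.05. The shares over all genes were 3.43% called and 16.6% with an unadjusted p under 0.05. Cish, a feedback inhibitor of cytokine and growth hormone signals, had 8.17, 9.23 and 8.31 in the 220 mg/kg arrays, against 6.73, 6.79, 6.61, 6.83 and 6.83 in the vehicle arrays. The fitted log2 change was 1.82 ± 0.44 (adjusted p = 0.0272). The call was lost for Cish without 220 mg/kg replicates 2 or 3 or vehicle replicates 2, 3 or 4 (adjusted p 0.0516 to 0.181). For the mean of its probe sets, Cish changed by 1.37 (adjusted p = 0.0817). Among nuclear receptors, Nr3c2 (0.54 ± 0.12), which binds mineralocorticoids, and Nr5a2 (0.38 ± 0.09), which drives bile acid genes, rose with Thrb, and Ppard (-0.54 ± 0.10) fell with Nr1i2, of 32. On leaving out 1 array the call was lost for Nr3c2 without 220 mg/kg replicate 1 (adjusted p = 0.107), Nr5a2 without 220 mg/kg replicates 2 or 3 (adjusted p 0.101 to 0.108), and Ppard without 220 mg/kg replicate 2 (adjusted p = 0.0567). With the mean of its probe sets, Nr5a2 changed by 0.13 (adjusted p = 0.778), and the arrays of the 2 groups alone gave adjusted p of 0.0739 for Nr5a2 and 0.0674 for Nr3c2.

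Other genes of varied roles were among the largest changes. Mt2A, a metal-binding metallothionein, had 14.13, 14.34 and 14.12 in the 220 mg/kg arrays, against 11.37, 13.51, 12.98, 12.85 and 12.58 in the vehicle arrays. The log2 change was 1.54 ± 0.29 (adjusted p = 0.00545), with a wide spread among the vehicle arrays. Meox2, a homeobox factor, rose by 1.49 ± 0.22 and Nedd9, an adhesion scaffold, by 1.36 ± 0.18 (adjusted p = 0.00089 and 0.000305). Among falls, the phosphate carrier Slc34a2 had -1.60 ± 0.30 (adjusted p = 0.00542), the vasopressin receptor Avpr1a -1.38 ± 0.20 (adjusted p = 0.000565), the galectin-like Lgalsl -1.30 ± 0.16 (adjusted p = 0.000153) and the G-protein regulator Rgs16 -1.64 ± 0.38 (adjusted p = 0.0204). Single left-out arrays ended the call for Rgs16 without 220 mg/kg replicates 2 or 3 or vehicle replicate 4 (adjusted p 0.0523 to 0.102). Hamp, the iron hormone hepcidin, had 14.22, 14.21 and 14.32 in the 220 mg/kg arrays, against 13.57, 13.75, 13.86, 13.90 and 13.71 in the vehicle arrays. This gave a log2 change of 0.49 ± 0.09 (adjusted p = 0.00542), and Hamp was the 1 riser of 28 acute phase and complement genes, of which Steap4 (-0.49 ± 0.12) and Mbl2 (-0.28 ± 0.07) fell. In the heme list Alad, the second enzyme of heme synthesis, fell (-0.32 ± 0.07, adjusted p = 0.0223), 1 of 13. With 1 array left out, the call was lost for Steap4 without 220 mg/kg replicates 2 or 3 or vehicle replicate 4 (adjusted p 0.0536 to 0.112) and Alad without 220 mg/kg replicates 2 or 3 or vehicle replicate 4 (adjusted p 0.0527 to 0.132), and for Mbl2 in 7 of the 8 fits (adjusted p up to 0.164); with the mean of its probe sets Mbl2 changed by -0.24 (adjusted p = 0.139).

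Markers of other liver cells were set beside these results. The mean log2 level of 13 Kupffer cell and macrophage markers was 9.568 to 9.868 in the 220 mg/kg arrays and 9.871 to 10.25 in the vehicle arrays, so that the groups did not overlap, and 12 of the 13 changes were below 0 with a median of -0.35. Limma called 0 of the 13, and 1 was lower at an unadjusted p under 0.05. For 19 stellate cell markers the means were 7.70 to 7.81 at 220 mg/kg and 7.76 to 8.08 in vehicle (median log2 change -0.28), and 1, the receptor Pdgfrb, fell (-0.43 ± 0.09, adjusted p = 0.00993, or 0.0516 without 220 mg/kg replicate 3). With the mean of its probe sets, Pdgfrb changed by -0.20 (adjusted p = 0.0858). Of the 19 stellate cell markers, 16 had changes below 0, and at an unadjusted p under 0.05, 0 were higher and 5 lower. The 13 endothelial markers had 8.53 to 8.83 at 220 mg/kg and 8.70 to 9.03 in vehicle (median log2 change -0.21), and limma called 0, with 1 lower at an unadjusted p under 0.05. Of 9 bile duct, 15 lymphocyte and 9 blood cell markers limma called 0, with medians of -0.08, -0.10 and -0.10. At an unadjusted p under 0.05, 2 bile duct markers were higher and 1 lymphocyte marker lower, while 16.6% of all genes differed in either direction. In bulk liver, fewer cells of a type and less RNA per cell cannot be told apart, and the part of these shifts in the falls described above was not tested.

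Arrays at 220 mg/kg were also compared with those at lower doses and at 440 mg/kg. Vehicle arrays do not enter these differences, but they do enter the shared estimate of the spread behind the p-values. Against 110 mg/kg limma called 0 of 14217 genes at an adjusted p under 0.05, and 417 (2.93%) had an unadjusted p under 0.05. Against 55 mg/kg, a comparison added after the data were seen, it called 0, with 619 (4.35%) at an unadjusted p under 0.05. Against 440 mg/kg it called 3 (0.0211%), 1 higher (0.00703%) and 2 lower (0.0141%) at 220 mg/kg, and 834 genes (5.87%) had an unadjusted p under 0.05. Osgin1, an oxidative-stress growth inhibitor, was higher at 220 than at 440 mg/kg by 1.19 ± 0.17 (adjusted p = 0.0223). Lower at 220 mg/kg were Noct, a gene of the clock list, with a difference of -2.44 ± 0.39, and C8h11orf54 with -0.68 ± 0.11 (adjusted p = 0.0305 each). In place of 3 calls there were 0 with the arrays of the 2 groups alone, 0 without 220 mg/kg replicate 2 and 0 without 440 mg/kg replicate 1. There was 1 without replicate 3 of either dose, and there were 7 without 220 mg/kg replicate 1. Compared with vehicle, none of the 3 was called at 220 mg/kg: Osgin1 had 0.05 ± 0.15, Noct 0.21 ± 0.35 and C8h11orf54 0.14 ± 0.10.

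Against the same vehicle arrays, 275 genes rose (1.93%) and 125 fell (0.879%) at 55 mg/kg, 336 (2.36%) and 177 (1.24%) at 110 mg/kg, 961 (6.76%) and 609 (4.28%) at 440 mg/kg, and 1810 (12.7%) and 957 (6.73%) at 881 mg/kg. Since these comparisons share their vehicle arrays, changes of single genes are given side by side. For the 3 largest rises among the CAR and PXR targets the estimate was higher at each higher dose. Abcc3 had log2 changes of 0.41 at 55, 1.48 at 110, 2.49 at 220, 3.30 at 440 and 3.67 at 881 mg/kg, Ces2c 1.18 at 55, 1.49 at 110, 2.14 at 220, 3.37 at 440 and 4.03 at 881 mg/kg, and Ugt2b1 0.59 at 55, 0.81 at 110, 1.19 at 220, 1.40 at 440 and 1.61 at 881 mg/kg. Other members did not follow that order, such as Por with 0.65 at 55, 0.79 at 110, 0.61 at 220, 1.01 at 440 and 1.10 at 881 mg/kg and the uncalled Abcc2 with 0.16 at 55, 0.05 at 110, 0.20 at 220, 0.34 at 440 and 0.66 at 881 mg/kg, and the median over the 25 measured members was 0.14 at 55, 0.08 at 110, 0.32 at 220, 0.41 at 440 and 0.66 at 881 mg/kg. Gstp1, a glutathione transferase, had -0.12 at 55, -0.21 at 110, 0.24 at 220, 1.56 at 440 and 2.22 at 881 mg/kg, so 220 mg/kg stood with the lower doses, and its difference between 220 and 440 mg/kg was -1.32 ± 0.29 (adjusted p = 0.172).

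Some clock and growth genes were called at 55 mg/kg as well. Every dose is compared with the same vehicle arrays, and the hour of sampling is not known here. Where a change is of like size at all doses, an effect of dosing and a difference of the vehicle arrays themselves cannot be told apart. Dbp had log2 changes of 3.74 at 55, 4.07 at 110, 3.77 at 220, 4.50 at 440 and 3.83 at 881 mg/kg, Nr1d2 1.64 at 55, 1.62 at 110, 1.55 at 220, 1.55 at 440 and 1.55 at 881 mg/kg, Hsd17b2 2.44 at 55, 2.48 at 110, 2.25 at 220, 2.45 at 440 and 1.71 at 881 mg/kg, and Cdkn1a -2.24 at 55, -2.11 at 110, -1.89 at 220, -2.11 at 440 and -1.93 at 881 mg/kg, each called at 55 mg/kg (adjusted p at most 2.00e-05). Npas2 had -0.90 at 55, -1.28 at 110, -1.10 at 220, -2.58 at 440 and -2.60 at 881 mg/kg, and the difference between 220 and 440 mg/kg was 1.48 ± 0.27 (adjusted p = 0.0742). Among the stress genes that rose, Chac1 had 1.15 at 55, 0.77 at 110, 1.80 at 220, 0.75 at 440 and 0.45 at 881 mg/kg, Trib3 1.18 at 55, 1.10 at 110, 2.01 at 220, 1.40 at 440 and 0.85 at 881 mg/kg, Ddit4 1.38 at 55, 1.44 at 110, 2.35 at 220, 2.20 at 440 and 1.36 at 881 mg/kg and Atf4 0.38 at 55, 0.46 at 110, 0.64 at 220, 0.82 at 440 and 0.51 at 881 mg/kg, so that the estimate was highest at 220 mg/kg for Chac1, Trib3 and Ddit4 and at 440 mg/kg for Atf4. The difference of Chac1 was 1.04 ± 0.24 against 110 mg/kg and 1.05 ± 0.24 against 440 mg/kg (adjusted p = 0.953 and 0.21), so neither passed the test. Trib3, Ddit4 and Atf4 were also not called between 220 mg/kg and 55, 110 or 440 mg/kg. Oat had -0.23 at 55, -0.33 at 110, -1.33 at 220, -1.97 at 440 and -1.99 at 881 mg/kg, and its difference between 220 and 110 mg/kg was -0.997 ± 0.27 with an adjusted p of 1. Abcc3 was higher at 220 than at 55 mg/kg by 2.09 ± 0.37 (adjusted p = 0.285), also without a call.

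**Figure D5:**
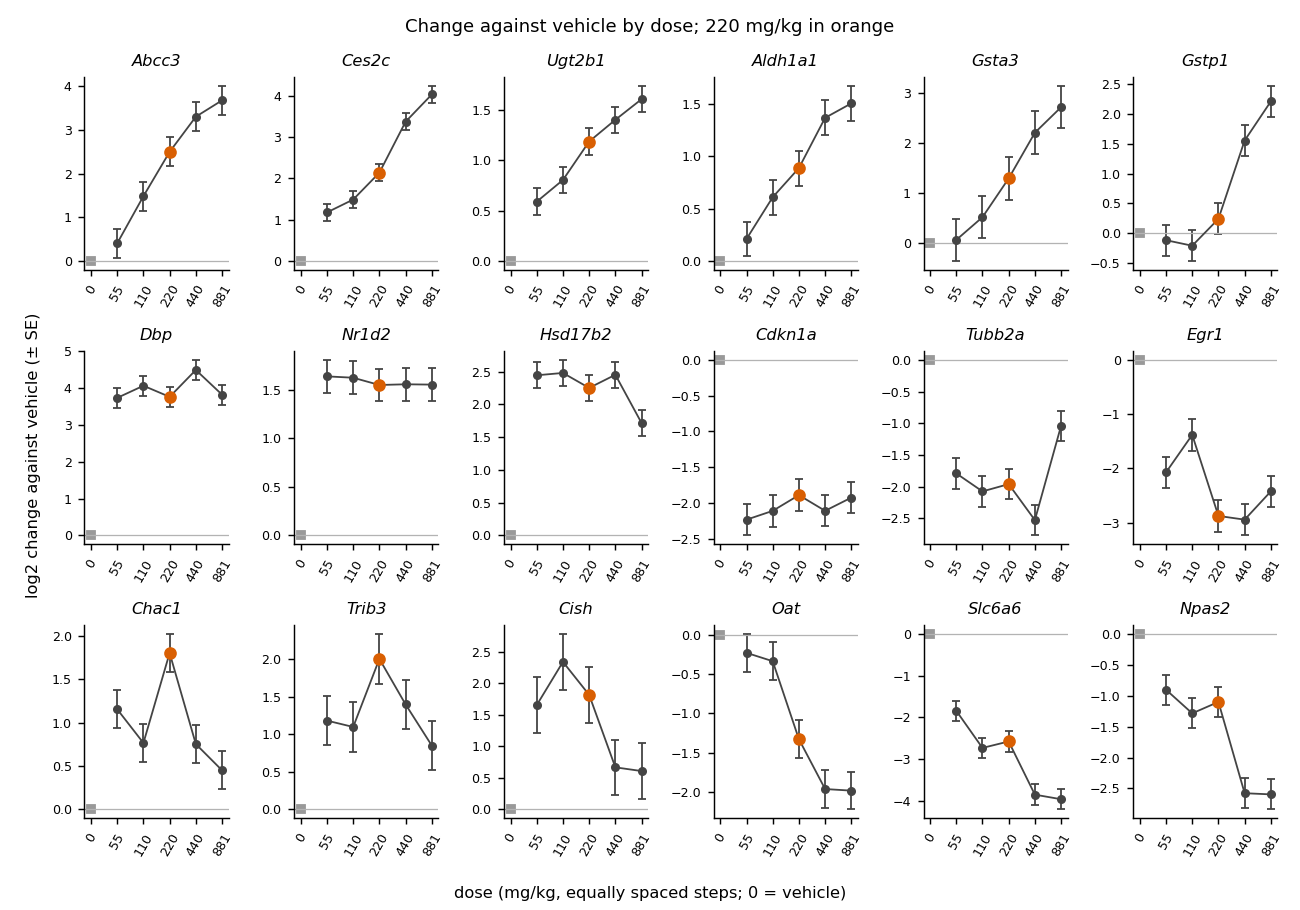
Log2 change against vehicle with its standard error (vertical axis) at each dose in mg/kg (horizontal axis, equally spaced steps, vehicle at 0) for 18 genes; the orange point is 220 mg/kg, and all doses share the vehicle arrays. The genes of the upper row other than Gstp1 are higher at each higher dose, Dbp, Nr1d2, Hsd17b2, Cdkn1a and Tubb2a in the middle row are near their 220 mg/kg change at 55 mg/kg, and Chac1 and Trib3 in the lower row are highest at 220 mg/kg.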

How the data were processed

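Liver RNA was hybridised to Affymetrix arrays, 1 array per sample, after amplification and biotin labelling, per the labels' protocols. What the authors deposited is a table of log2 values, 1 per probe set and array, produced by RMA according to the labels (per the submitters' processing notes); its version and settings are unknown here. RMA equalises arrays, so a change in total RNA per sample cannot be seen, and it compresses low signals. No 2 arrays shared over 0.0226% of their values.

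Of 31042 non-control probe sets, 20826 carried 1 gene symbol in the platform annotation, 436 several and 9780 none. For each of 14217 genes the probe set of highest mean on the 20 arrays was used, since 4525 genes had several. Probe sets without a single symbol were left out. One linear model of 6 dose groups was fitted to all 20 arrays with limma 3.58.1 in R 4.3.3 (lmFit, eBayes), p-values were two-sided and adjusted by Benjamini-Hochberg over all genes, and the model was tested on simulated data. No filter on signal or fold change was used, and no array of the 8 was dropped.

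Genes were named by rule: the 15 that rose and the 15 that fell most without overlap between groups, up to 4 called members of each list with the largest change, genes of known interest whatever their result, and the genes called between 220 and 440 mg/kg. Other list members were named after their values were seen. The comparison, the 39 gene lists and the rule were chosen with earlier results of these data known. Of the 109 genes so named, 79 were called; 23 of these had another probe set that was not called, and 0 had one called the opposite way. Alternatives comprised other spread estimates, array weights, median centring, an RNA-quality covariate, averaging of probe sets, a filter on genes below the 25th percentile of signal, and leaving out each array. Promoter sequences are RefSeq windows on GRCr8. Tables and figures were made in Python 3.11.15 (pandas 2.3.3, matplotlib 3.10.9).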

Additional observations from a re-analysis of the deposited data

Results flagged for a closer look

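Among 113 named genes and array measures, 9 genes had 1 vehicle array that stood apart from the other 4 by more than Dixon's limit, which chance passes in about 1 in 20 groups. Vehicle replicate 2 was the array in 4 of them. Nr1d1 was 7.72 there against at most 6.67 in the other vehicle arrays, and without it the log2 change at 220 mg/kg was 2.19 (limma, adjusted p = 7.41e-05). Nr1d2 was 9.18, and the change without it 1.72 (adjusted p = 2.15e-07). Hsd17b2 was 10.86, with a change of 2.34 without it (adjusted p = 4.68e-06), and Rprm was 7.47, with a change of -1.73 (adjusted p = 0.0057).

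Vehicle replicate 1 stood apart in 3 genes. Meox2 was 6.78 there, and without it the log2 change was 1.68 (adjusted p = 7.98e-05). Nr3c2 was 7.20, with a change of 0.65 without it (adjusted p = 0.0012), and Cth was 13.73, with a change of -0.60 (adjusted p = 0.049995, close to the threshold). Angptl4 was 10.87 in vehicle replicate 5, and without it the change was -1.59 (adjusted p = 0.00398). Gsta4 was 11.53 in vehicle replicate 4, and the change was 0.51 without it (adjusted p = 0.0267). All 9 genes were called with and without the array that stood apart.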

How the results depend on the processing

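Of 320 genes that rose and 168 that fell, alternatives gave 306 to 357 and 168 to 189 with the 2 groups alone, with trend and robust spread, or without dim genes, 270 and 208 after median centring, and 261 and 145 with the mean of probe sets. Larger shifts came from array weights (775 and 518), from dropping 881 mg/kg replicate 2 from the model (504 and 244) and from a beta-actin 3' minus 5' covariate (449 and 255). With the replicate block, 214 rose and 108 fell. Same-numbered arrays of the 2 groups correlated at 0.216, -0.0164 and 0.0157 in their deviations. Arrays with different numbers reached 0.158, for 220 mg/kg replicate 2 and vehicle replicate 3. So few correlations cannot decide whether the replicate numbers pair the samples. Leaving out 1 array gave 117 to 284 risen and 75 to 173 fallen genes. A fold of at least 1.5 left 106 and 69, and with an unadjusted p under 0.05 in its place 152 and 109. Between 220 and 110 mg/kg the count of 0 became 1 with the replicate block and 33 at 1.5-fold with an unadjusted p. Between 220 and 440 mg/kg the count of 3 became 0 with the 2 groups alone, 7 without 881 mg/kg replicate 2 in the model, 35 with array weights, 1 with the replicate block and 86 at 1.5-fold with an unadjusted p, and 0 to 7 on leaving out 1 array. Between 220 and 55 mg/kg the count of 0 became 18 with array weights, 54 at 1.5-fold with an unadjusted p, and 0 to 1 on leaving out 1 array. Of 79 named genes that were called, 37 were called in all 8 fits leaving out 1 array, 58 with the replicate block and 62 with the mean of probe sets, and 0 of the 79 changed sign in any alternative run. Of the 30 named genes that were not called, 8 changed sign in at least 1 alternative, none of them with a call (Akr1b8, Cyp3a2, Dio1, Gclc, Noct, Nr1i3, Osgin1 and Ppara), and 8 gained a call in at least 1. With the 2 groups alone, calls were lost for the alcohol dehydrogenase Adh4, the carbonyl reductase Cbr4, Egr2, Mbl2, Nr3c2, Nr5a2 and Papss2 (adjusted p 0.0511 to 0.0764), and gained for Cyp1a1, Cyp4a1, Ephx1, Gsta3, Myc and Nqo1 (adjusted p 0.00666 to 0.0492). The cause of these shifts was not tested. With 3 dosed arrays, the median SE of a log2 change was 0.10, which limits the differences that can be called.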

Other observations

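Of the 20 genes with the smallest p at 220 mg/kg, 12 had been named by rule. The others, chosen after their values were seen, include 2 clock genes described above and several genes outside the lists. Syne1, which links the nucleus to the cytoskeleton, ranked 4 by p, with log2 values of 7.71, 7.65 and 7.70 in the 220 mg/kg arrays, against 8.38, 8.49, 8.61, 8.46 and 8.38 in the vehicle arrays. All dosed arrays were lower, and the log2 change was -0.77 ± 0.07 (limma, adjusted p = 1.03e-05). Its changes against the shared vehicle arrays were -0.76 at 55, -0.87 at 110, -0.77 at 220, -0.97 at 440 and -0.77 at 881 mg/kg. Zfp467, a zinc finger factor, had 9.10, 9.39 and 9.18 in the 220 mg/kg arrays, against 8.24, 7.67, 7.92, 7.74 and 8.14 in the vehicle arrays, with a log2 change of 1.28 ± 0.14 (adjusted p = 3.72e-05).

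Several further genes with small p had a change of the same sign at every dose. Osbpl11, an oxysterol-binding protein, rose by 0.97 ± 0.11 and the Wnt effector Tcf7l2 by 0.74 ± 0.12 (adjusted p = 7.33e-05 and 0.00187). The heparan sulfate proteoglycan Sdc4 changed by -0.81 ± 0.10, the choline kinase Chka by -0.86 ± 0.12, the death-associated kinase Dapk1 by -1.08 ± 0.15 and the lactate carrier Slc16a1 by -0.76 ± 0.12 (adjusted p = 8.98e-05, 0.000565, 0.00042 and 0.00212). For Slc16a1 the estimates were -0.26 at 55, -0.76 at 110, -0.76 at 220, -1.24 at 440 and -1.03 at 881 mg/kg, and for Chka -1.50 at 55, -1.65 at 110, -0.86 at 220, -1.55 at 440 and -1.24 at 881 mg/kg. None of these genes was called between 220 mg/kg and 55, 110 or 440 mg/kg.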
